A study of Mus musculus with 18 samples.

Results

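The 10 genes Slc1a5, Slc38a1, Slc38a2, Slc38a4, Slc38a10, Slc7a5, Slc7a6, Slc3a2, Slc7a11 and Slc25a22 encode transporters of glutamine and other neutral amino acids, of glutamate and of cystine. They are given by name, in a list drawn up with earlier results of these data known, and all 10 were found among the 46983 gene names of each of the 2 count tables. The series addresses glutamine, the skeleton and body fitness in obese mice. RNA was sequenced from marrow samples with titles reading mBMSC and from adipose samples with titles reading mAT-MSC VAT. All samples came from male mice of the inbred strain C57BL/6J, and all carried the description HFD. In each of the 2 tissues 5 libraries came from the HFD arm with glutamine and 4 from the HFD arm without it, 18 libraries in all. Neither arm was free of HFD, the labels do not spell that abbreviation out, and they state no age, dose or length of treatment. Each title carries a pair of numbers, such as 1_3, and the labels do not say whether a pair stands for pooled animals or whether libraries of an arm came from separate mice. A p-value here thus reflects the spread among the libraries at hand alone, and that spread may be technical. One glutamine marrow column carries a number pair that matches no title, and it is called the unnumbered library here.

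Glutamine enters cells through sodium-driven carriers, among them the exchanger ASCT2 (Slc1a5) and the system A carriers SNAT1, SNAT2 and SNAT4 (Slc38a1, Slc38a2 and Slc38a4). Inside the cell it can be exported by LAT1 (Slc7a5) in exchange for leucine, which is sensed at the lysosome by the growth kinase complex mTORC1. LAT1, its relative y+LAT2 (Slc7a6) and the cystine and glutamate exchanger xCT (Slc7a11) are light chains that reach the cell surface joined to a common heavy chain, CD98 (Slc3a2). Slc25a22 carries glutamate, the first product of glutamine breakdown, into mitochondria. SNAT2 and xCT are textbook targets of the amino acid starvation response.

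The libraries were read near the 3′ end of transcripts, so a count stands for a transcript end and was not divided by gene length. Adipose libraries held 35871168 to 59529238 counts with 11361 to 14469 genes at 100 counts or more, and marrow libraries 13970788 to 37984603 counts with 1755 to 7323 such genes. Marker lists were summed for each library. A list of 7 adipose progenitor genes summed to 15746 to 22216 CPM (counts per 1000000 counts of the library) in adipose and 1674 to 4837 CPM in marrow. The 6 osteoblast genes summed to 5302 to 10049 CPM in adipose and 52048 to 239063 CPM in marrow. Nearly all of the osteoblast sum was 1 gene, the collagen Col1a1. It held 0.528% to 1.00% of all counts in adipose libraries and 5.03% to 23.0% in marrow libraries. Neutrophil markers were also present, at 45.7 to 277 CPM in adipose and 2698 to 54233 CPM in marrow. In such bulk samples fewer cells of a type and less RNA per cell cannot be told apart.

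In adipose tissue the carriers stood at widely different levels. Slc38a2 was the highest at 600.0 ± 111 CPM (SD, n = 9), followed by Slc1a5 at 345 ± 70.9 CPM. Slc38a10, a SNAT family member whose transport role is less settled, averaged 142 ± 39.3 CPM and Slc3a2 136 ± 59.2 CPM, and these neighbours did not differ beyond their spread. Slc7a6 at 31.9 ± 9.49 CPM and Slc38a1 at 29.9 ± 43.0 CPM formed the next level. Slc7a11 averaged 10.9 ± 8.77 CPM and Slc7a5 3.36 ± 2.68 CPM, and Slc25a22 at 1.96 ± 2.09 CPM and Slc38a4 at 1.67 ± 1.88 CPM were lowest and within each other's spread. Slc38a2 and Slc1a5 together made up 59.9% to 85.1% of the counts of the 10 genes in an adipose library. The most abundant members were also the most even: Slc38a2 varied by a coefficient of variation of 18.5% over the 9 libraries and Slc1a5 by 20.5%, against 144% for Slc38a1.

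**Figure D1:**
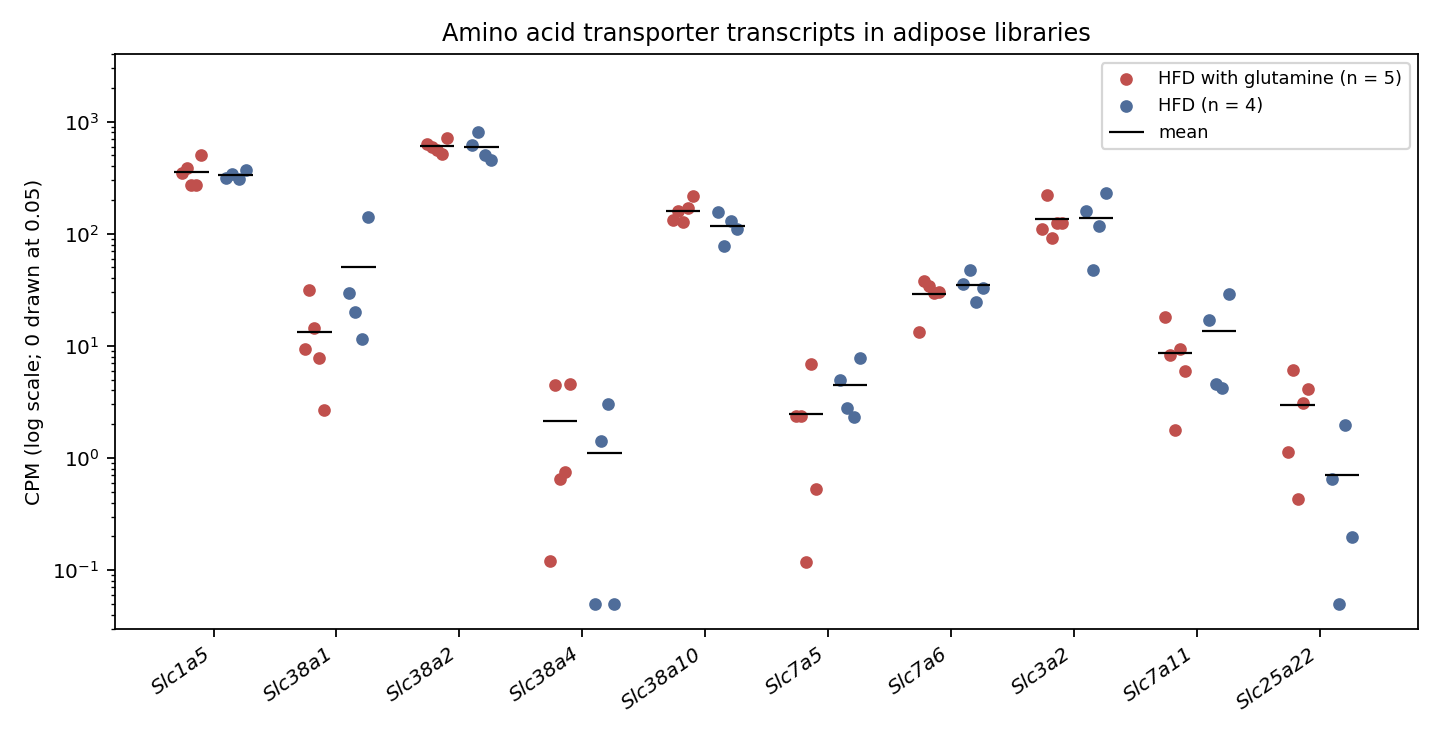
CPM of the 10 transporter genes in each adipose library on a log axis, with the glutamine libraries (red, n = 5) left of the HFD libraries (blue, n = 4), a bar at each mean and values of 0 drawn at 0.05. The arms overlap for every gene, and for Slc38a1 the HFD library 23_28 stands alone at 142 CPM.

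The question of the glutamine arm in adipose tissue was whether added glutamine went with other levels of its own carriers. None of the 10 members was called by edgeR's quasi-likelihood test at an adjusted p under 0.05. Of all 15114 genes tested, 0 were called, which is 0%. At an unadjusted p under 0.05 there was 1 member, Slc38a1, and 624 of all genes. DESeq2 called 31 genes (0.208%) and limma-voom 0, none of them members. The arms overlapped in CPM for all 10 members. The median log2 fold change of the members was -0.04 and that of all genes tested was -0.02.

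The main glutamine exchanger was close to even between the arms. Slc1a5 (chr7:16781340-16798274, plus strand, GRCm38) had 346, 386, 270.1, 271 and 501 CPM in the glutamine libraries, against 313, 343, 307 and 369 CPM in the HFD libraries. The 4 HFD values lay within the range of the glutamine values. The edgeR log2 fold change was 0.07 (SE 0.20, 95% interval -0.37 to 0.51), an interval that covers both directions.

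Of the system A carriers, Slc38a2 was the steadiest. It had 629, 590.4, 562, 518 and 715 CPM in the glutamine libraries, against 618, 813, 499 and 456 CPM in the HFD libraries. Its arms averaged 603 ± 74.7 CPM and 597 ± 160 CPM (SD, n = 5 and 4), and the log2 fold change was -0.01 (SE 0.20, 95% interval -0.44 to 0.41). Its neighbour Slc38a1 differed most. Slc38a1 had 9.35, 31.7, 14.4, 7.80 and 2.69 CPM in the glutamine libraries, against 29.7, 19.9, 11.6 and 142 CPM in the HFD libraries. Most libraries of both arms lay between 2.69 and 31.7 CPM and 1 HFD library, 23_28, lay far above them. The log2 fold change was -1.98 (SE 0.75, 95% interval -3.59 to -0.37), with an edgeR p of 0.0197 that adjusted to 1.00. Without library 23_28 it was -0.66.

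Levels of leukocyte markers were set beside those of Slc38a1 in adipose tissue, and no association was tested. The 6 T and NK cell genes summed to 97.4, 148, 45.7, 47.6 and 27.7 CPM in the glutamine libraries and to 62.1, 128, 79.9 and 177 CPM in the HFD libraries. Library 23_28, highest for Slc38a1, was also highest for this list, and glutamine library 25_27 was lowest for both. Glutamine library 10_12 came next after 23_28 on both, at 148 CPM for the list and 31.7 CPM of Slc38a1. The order was not the same in every library. Glutamine library 4_6 had 97.4 CPM for the list and 9.35 CPM of Slc38a1, against 62.1 and 29.7 CPM in HFD library 1_3. Of the 6 genes, 4 to 6 had at least 100 counts in each adipose library and none was at 0. The 6 B and plasma cell genes summed to 228 to 1302 CPM in the glutamine libraries and 606 to 3857 CPM in the HFD libraries, with the highest value again in 23_28, and 1 of them, Cd79a, was at 0 in all 9. The 10 macrophage genes summed to 335 to 767 CPM with glutamine and 678 to 1881 CPM with HFD alone. The 7 neutrophil genes were highest in HFD library 1_3, at 277 CPM, with 146 CPM in 23_28. The part of these cells in the Slc38a1 values was not tested.

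The remaining SNAT genes were Slc38a4 and Slc38a10. Slc38a4, the SNAT4 gene best known from liver, had 5, 269, 33, 36 and 215 counts in the glutamine libraries, against 0, 51, 156 and 0 counts in the HFD libraries. Only 3 of the 9 libraries reached 100 counts, so the log2 fold change of 0.92 carried an SE of 1.90. Slc38a10 had 133, 158, 127, 171 and 216 CPM in the glutamine libraries, against 156, 78.1, 130 and 109 CPM in the HFD libraries. Its log2 fold change was 0.43 (SE 0.23, 95% interval -0.06 to 0.92), with an edgeR p of 0.0835 before adjustment. Its exons overlap those of the antisense transcript Gm11769, which had 320 counts over all adipose libraries, and whether counting used strand is not stated.

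Over all adipose libraries the CD98 heavy chain Slc3a2 had a coefficient of variation of 43.5%, against 79.8% for Slc7a5, 80.5% for Slc7a11 and 29.8% for Slc7a6. Slc3a2 had 109, 220.0, 90.9, 124 and 126 CPM in the glutamine libraries, against 159, 47.4, 116 and 232 CPM in the HFD libraries. The lowest and the highest library were both in the HFD arm, and the log2 fold change was -0.07 (SE 0.37). Slc7a5, the LAT1 gene, had 2.39, 2.35, 0.117, 6.95 and 0.530 CPM in the glutamine libraries, against 4.94, 2.82, 2.30 and 7.86 CPM in the HFD libraries. Its lowest value, in glutamine library 13_15, rested on 6 counts, and the log2 fold change was -0.90 (SE 1.25).

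Slc7a6 and Slc7a11 also overlapped between the arms. Slc7a6 had 13.2, 38.3, 34.4, 29.9 and 30.4 CPM in the glutamine libraries, against 35.4, 47.9, 24.9 and 32.5 CPM in the HFD libraries, a log2 fold change of -0.30 (SE 0.36). Slc7a11, the xCT gene, had 18.2, 8.32, 1.77, 9.30 and 5.93 CPM in the glutamine libraries, against 17.0, 4.57, 4.22 and 28.9 CPM in the HFD libraries. Its log2 fold change was -0.67 (SE 0.79) with all adipose libraries and 0.00382 without HFD library 23_28. The mitochondrial glutamate carrier Slc25a22 had 47, 365, 22, 149 and 193 counts in the glutamine libraries, against 35, 0, 101 and 9 counts in the HFD libraries. Its mean was 2.97 ± 2.30 CPM with glutamine and 0.700 ± 0.880 CPM with HFD alone, a log2 fold change of 2.09 (SE 1.64, 95% interval -1.45 to 5.62) that was not called.

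**Figure D2:**
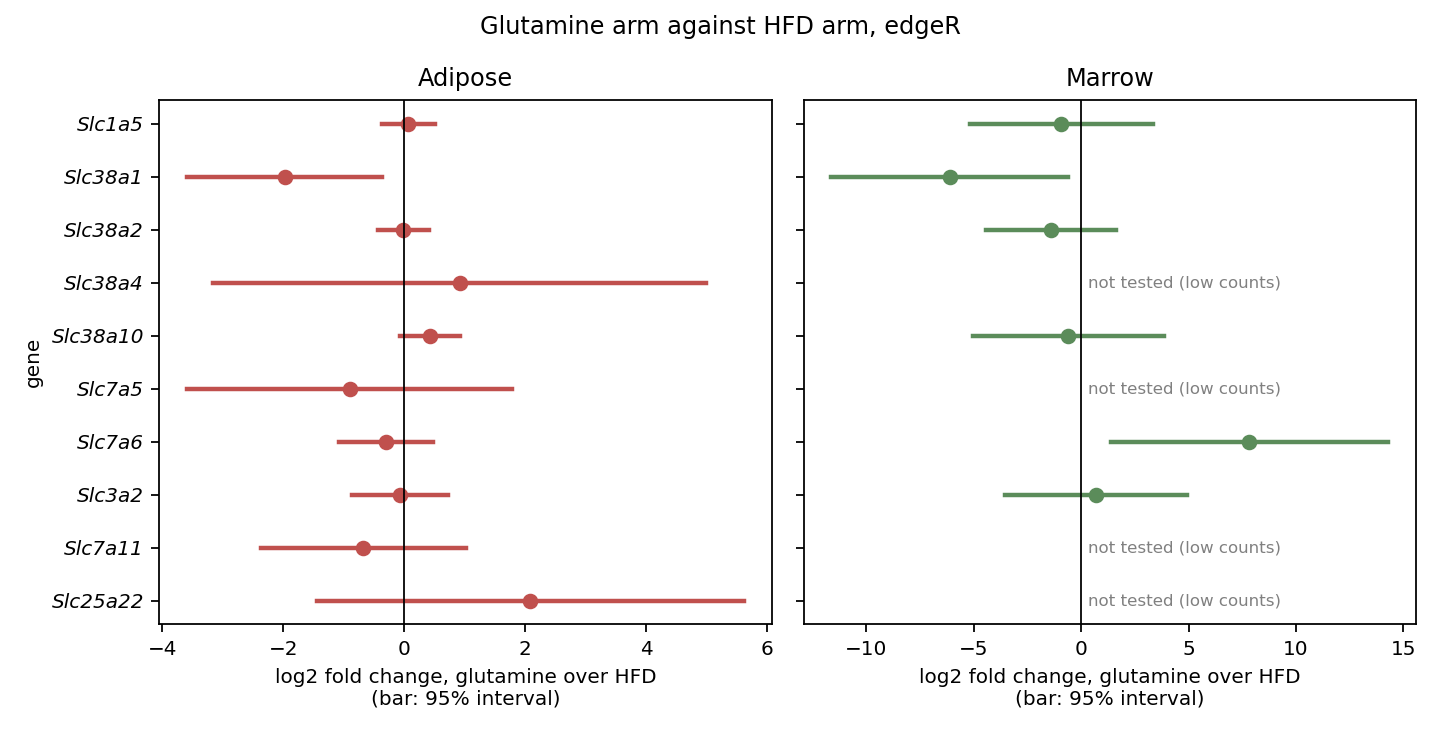
Log2 fold change of glutamine over HFD for the 10 genes in adipose (left, red) and marrow (right, green), with 95% intervals from the edgeR fit and different axis ranges in the panels. The adipose intervals of Slc1a5 and Slc38a2 lie within 0.51 of 0, whereas the narrowest marrow interval, that of Slc38a2, runs from -4.41 to 1.64, and 4 genes had too few marrow counts to be tested.

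In marrow the same genes were seen in an all-or-little pattern. Of the 90 values of 10 genes in 9 libraries, 29 reached 100 counts, 55 were under 30 counts, 19 of those at 0, and 6 lay between 30 and 99. Between 1 and 8 members reached 100 counts in a marrow library and between 6 and 10 in an adipose library. Glutamine library 18_20, which had the most genes at 100 counts, held 8 of them, and glutamine libraries 25_27 and unnumbered held 1 each. This was not particular to the transporters: among all 8790 genes with at least 100 counts in every adipose library, a median of 3 of 9 marrow libraries reached that count, and for the 6 such members the median was 4.

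**Figure D3:**
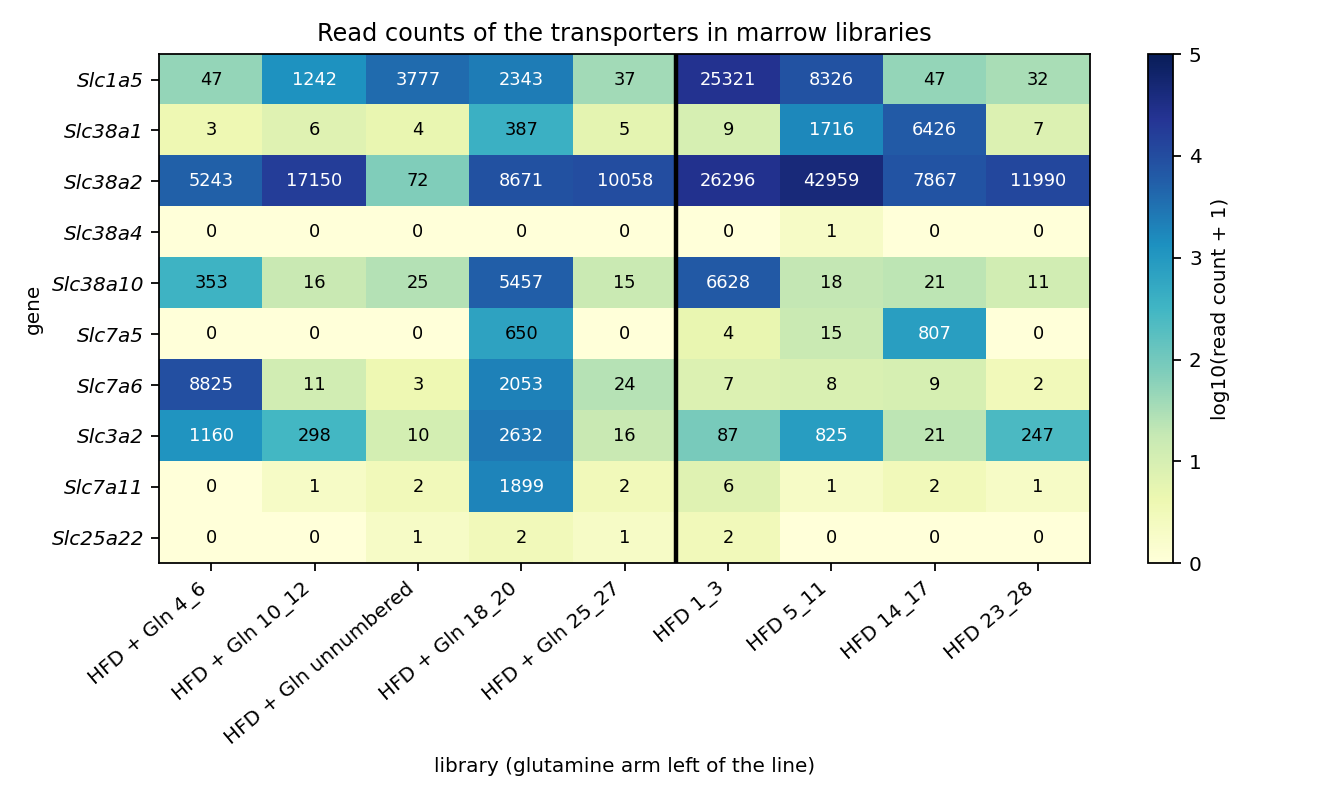
Read counts of the 10 genes in each marrow library, glutamine libraries left of the line and HFD libraries right of it, coloured by log10(count + 1). Slc38a2 has at least 5243 counts in 8 of the 9 libraries, Slc38a4 and Slc25a22 never exceed 2 counts, and the other genes appear in some libraries of either arm or of 1 arm.

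None of the 6 members that could be tested for glutamine in marrow was called by edgeR, against 0.132% of all 6041 genes tested (8 genes). Slc38a4, Slc7a5, Slc7a11 and Slc25a22 fell below the count filter. At an unadjusted p under 0.05 there were 2 members, Slc38a1 and Slc7a6, and 1127 of all genes. DESeq2 called 0 of the 3 members to which it gave an adjusted p and 722 of all genes (20.8%), and limma-voom called 0 members and 5 genes. The arms overlapped in CPM for all 10 members.

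Slc38a2 was the only member read in nearly every marrow library. The taurine transporter Slc6a6, which is not a member, likewise reached 100 counts in 8 of 9 libraries. Slc38a2 had 226, 1228, 4.26, 278 and 327 CPM in the glutamine libraries, against 692, 1236, 281 and 595 CPM in the HFD libraries. It reached 100 counts in 8 of 9 libraries and missed it with 72 counts in the unnumbered library. Of 267 genes with an adipose level within 1.5 times its own, 51.3% reached 100 counts in at least as many marrow libraries. The edgeR log2 fold change for glutamine was -1.39 (SE 1.54, adjusted p = 0.752).

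Slc1a5 split both arms. It had 2.02, 88.9, 224, 75.1 and 1.20 CPM in the glutamine libraries, against 667, 239.6, 1.68 and 1.59 CPM in the HFD libraries. High and low libraries occurred in each arm, and the log2 fold change was -0.92 (SE 2.16, adjusted p = 0.912). Slc38a10 was read at 15.2 and 175 CPM in glutamine libraries 4_6 and 18_20 and at 174 CPM in HFD library 1_3, and at 0.488 to 1.48 CPM in the other 6. Slc3a2 had 49.9, 21.3, 0.592, 84.4 and 0.520 CPM in the glutamine libraries, against 2.29, 23.7, 0.750 and 12.3 CPM in the HFD libraries, and its log2 fold change was 0.70 (SE 2.16, adjusted p = 0.933).

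Slc38a1 was read mainly in HFD marrow libraries. It had 3, 6, 4, 387 and 5 counts in the glutamine libraries, against 9, 1716, 6426 and 7 counts in the HFD libraries. High values came from 1 of 5 glutamine and 2 of 4 HFD libraries, so the arms overlapped. The log2 fold change was -6.12 (SE 2.81, 95% interval -11.6 to -0.61), with an edgeR p of 0.0294 and an adjusted p of 0.208, and without HFD library 14_17 it was -3.25. The T and NK cell markers summed to 0.288 and 0.357 CPM in the HFD libraries 5_11 and 14_17, with no gene of the list at 100 counts. The B and plasma cell genes summed to 112 CPM in HFD library 5_11, 4.64 CPM in HFD library 14_17 and 213 CPM in glutamine library 18_20. They also summed to 180 CPM in the unnumbered glutamine library, which had 4 counts of Slc38a1. The part of such cells in the marrow Slc38a1 values was not tested.

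Slc7a6 reached 100 counts in 2 glutamine marrow libraries and in no HFD one. It had 8825, 11, 3, 2053 and 24 counts in the glutamine libraries, against 7, 8, 9 and 2 counts in the HFD libraries. Libraries 4_6 and 18_20 alone carried the difference, and the unnumbered glutamine library lay within the HFD range. The log2 fold change was 7.83 (SE 3.29, 95% interval 1.38 to 14.3), with an edgeR p of 0.0174 and an adjusted p of 0.197. A fit of all 18 libraries, which shares 1 estimate of spread between the tissues, put the marrow adjusted p of Slc7a6 at 0.0121, that of Slc38a1 at 0.0281 and that of Slc7a11 at 0.0276. That fit called these 3 of the 10 members and 25.8% of all 15203 genes, so the members' count was near the background. In library 4_6 the T and NK markers summed to 80.4 CPM, against at most 0.527 CPM in the other 8 marrow libraries, and in library 18_20 to 0.289 CPM. In library 4_6 only 1 of the 6 genes reached 100 counts, Nkg7. The other 5, Cd3e, Cd3d, Cd3g, Il2rb and Trbc2, stayed under 100 counts in every marrow library. Whether the cells behind that Nkg7 value took part in the Slc7a6 value was not tested.

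The other light chains were read in even fewer marrow libraries. Slc7a5 had 650 counts in glutamine library 18_20 and 807 in HFD library 14_17, and 15 or fewer in the other 7. Slc7a11 had 1899 counts in glutamine library 18_20 and 6 or fewer in each of the other 8. The heavy chain Slc3a2 reached 100 counts in 5 marrow libraries. Both libraries with Slc7a6 and the 1 with Slc7a11 were among them, as was 1 of the 2 with Slc7a5, while 14_17 held Slc7a5 with 21 counts of Slc3a2. Neither Slc38a4 nor Slc25a22 was read at more than 2 counts in any marrow library.

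Whether glutamine acted differently in the tissues was tested as the adipose fold change minus the marrow one, in 1 fit of all 18 libraries. Of the 10 members 1 was called, Slc7a6, against 11.9% of all 15203 genes tested. The share over all genes was itself unstable: it fell to 0 genes under the upper-quartile and the relative log expression scaling, without any 1 adipose library and without HFD marrow library 23_28, and to 6 genes with limma-voom. The Slc7a6 difference was -8.91 on the log2 scale (SE 2.44, edgeR adjusted p = 0.0432). It averaged 29.2 ± 9.60 CPM with glutamine and 35.2 ± 9.56 CPM with HFD alone in adipose, and 89.5 ± 165 CPM with glutamine and 0.209 ± 0.0926 CPM with HFD alone in marrow. The call did not survive relative log expression factors (adjusted p = 0.0501), upper-quartile factors (0.0697) or limma-voom (0.872), nor the loss of any 1 adipose library or any 1 HFD marrow library. The next member was Slc7a11 at -7.17 (SE 2.44, adjusted p = 0.0534), which rested on the marrow library 18_20. DESeq2, which called 10.1% of the genes it tested, called another member, Slc38a1, at 6.51 (adjusted p = 0.00338), where edgeR gave 3.53 (adjusted p = 0.399).

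Between the tissues 3 members were called by edgeR with TMM factors, 2 higher in adipose and 1 lower. Of all 15203 genes 51.7% were called, 40.5% higher in adipose and 11.2% higher in marrow, so these shares of the 10 members were below and near the background. The median of all genes was itself 1.43 higher in adipose on the log2 scale. It was -1.94 under the relative log expression scaling and -0.89 under the upper-quartile scaling, so the zero of this comparison depends on the scaling. The split of the calls turned with it. Relative log expression factors called 0 members higher in adipose and 5 lower, against 16.2% and 42.9% of all genes, and upper-quartile factors 1 higher and 4 lower, against 21.2% and 33.8%. DESeq2 called 0 higher and 4 lower, against 21.5% and 39.5%, whereas limma-voom called 5 higher and 0 lower, against 43.5% and 2.69%. Differences are therefore also given relative to the median of all genes.

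Slc38a4 was the clearest adipose carrier. Its 765 counts over the 9 adipose libraries stood against 1 count over the 9 marrow libraries. In pooled CPM this was a ratio of 417, with a 95% exact interval of 74.6 to 16478 that covers counting error only. The edgeR log2 difference was 6.83 (SE 1.83, adjusted p = 0.00528), or 5.41 above the median of all genes, and this fitted value depends on the prior count. Slc25a22 had 921 counts over the adipose and 6 over the marrow libraries, a ratio of 83.6 (95% exact interval 38.3 to 228). Its log2 difference was 4.11 (SE 1.22, adjusted p = 0.00859), or 2.68 above the median. Slc38a4 and Slc25a22 passed the count filter of this fit through the adipose libraries alone, where nearly all of their counts lay. The direction of their calls was thus set in advance, and the calls add no further support. Both were higher in adipose under TMM, relative log expression and upper-quartile factors, DESeq2 and limma-voom, but with limma-voom both lay at or below the median of all genes (-0.39 and -0.08 relative to it). Slc38a4 was not called with relative log expression factors or limma-voom, nor Slc25a22 with those factors or upper-quartile ones, and DESeq2 called neither.

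Slc38a2 was called in the other direction. Its log2 difference was -1.61 (SE 0.62, adjusted p = 0.0340), or -3.03 relative to the median of all genes. In CPM, which divides by the total count alone, it averaged 600.0 ± 111 in adipose and 541 ± 440 in marrow (SD, n = 9 each), so the plain level was not lower in adipose. It lay below the median of all genes under TMM, relative log expression and upper-quartile factors, DESeq2 and limma-voom, at -3.96 to -3.03 relative to it. With libraries taken out 1 at a time, the call held without adipose 4_6, 25_27 or 5_11 and without marrow unnumbered, 18_20 or 14_17, and was lost without any of the other 12, with the same direction throughout. It was also lost without the count filter (-1.38, adjusted p = 0.137) and with limma-voom (-1.07, adjusted p = 0.143).

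The other 7 members were not called between tissues by edgeR with TMM factors, but each was called under at least 1 of the alternatives. Slc1a5 and Slc38a1 were called lower in adipose with relative log expression factors, upper-quartile factors and DESeq2, Slc7a5 with both of those factors, and Slc3a2 with DESeq2. Slc38a10, Slc7a6, Slc3a2 and Slc7a11 were called higher with limma-voom, although Slc7a6 was called lower with relative log expression factors (-2.88, adjusted p = 0.0479, against 3.09 with limma-voom, adjusted p = 0.0323). Slc3a2 averaged 136 ± 59.2 CPM in adipose and 21.8 ± 28.6 CPM in marrow. Its log2 difference was 1.20 (SE 0.94) with TMM and -2.27 with relative log expression factors, near the median of all genes in both. Slc1a5 averaged 345 ± 70.9 CPM in adipose and 144 ± 217 CPM in marrow, a log2 difference of -0.46 (SE 0.98). Slc38a1 averaged 29.9 ± 43.0 CPM in adipose and 32.5 ± 75.6 CPM in marrow, and Slc7a5 3.36 ± 2.68 and 5.58 ± 11.1 CPM.

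**Figure D4:**
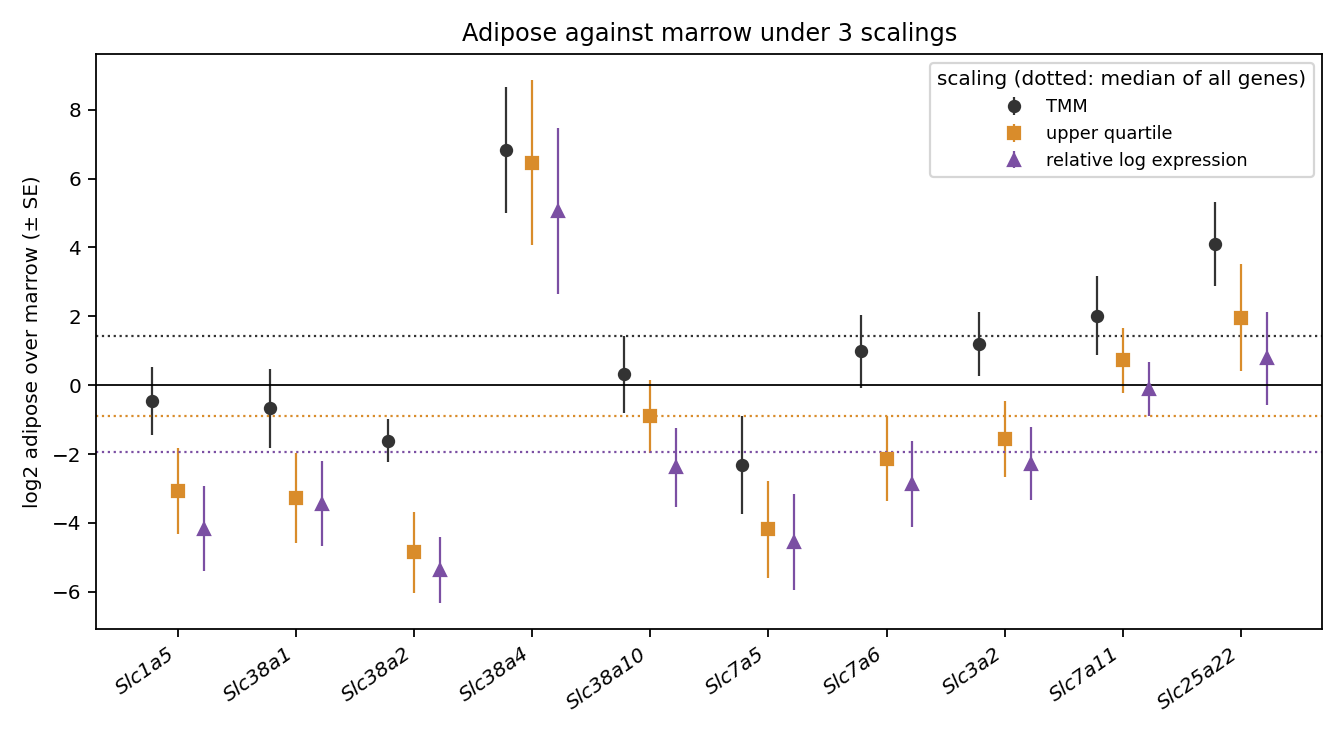
Log2 difference of adipose over marrow for each gene with its SE under TMM, upper-quartile and relative log expression factors, with the median of all genes under each as a dotted line. Slc38a4 and Slc25a22 lie above 0 and Slc38a2 below 0 under the 3 scalings, and Slc38a10, Slc7a6, Slc3a2 and Slc7a11 change sign.

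Since the light chains need the heavy chain at the cell surface, their levels were set against each other over the 9 adipose libraries. None of the 3 pairs tested passed. Slc7a11 followed Slc3a2 most closely, with Pearson's r = 0.598 (exact permutation p = 0.0847, adjusted over the 3 pairs 0.254) and Spearman's rho = 0.600 (exact permutation p = 0.0968, adjusted 0.290). For Slc7a5 r was 0.332 (exact permutation p = 0.373, adjusted 0.560) and rho 0.400 (p = 0.291, exact permutation, adjusted 0.437). For Slc7a6 r was -0.13 (exact permutation p = 0.737) and rho 0.0667 (exact permutation p = 0.880). Without the 2 libraries farthest from the median of Slc3a2, HFD 5_11 and 23_28, r was 0.473 for Slc7a11, 0.484 for Slc7a5 and 0.422 for Slc7a6, with exact permutation p of 0.285, 0.261 and 0.318. Each arm holds fewer than 6 libraries, so no value within an arm is given.

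**Figure D5:**
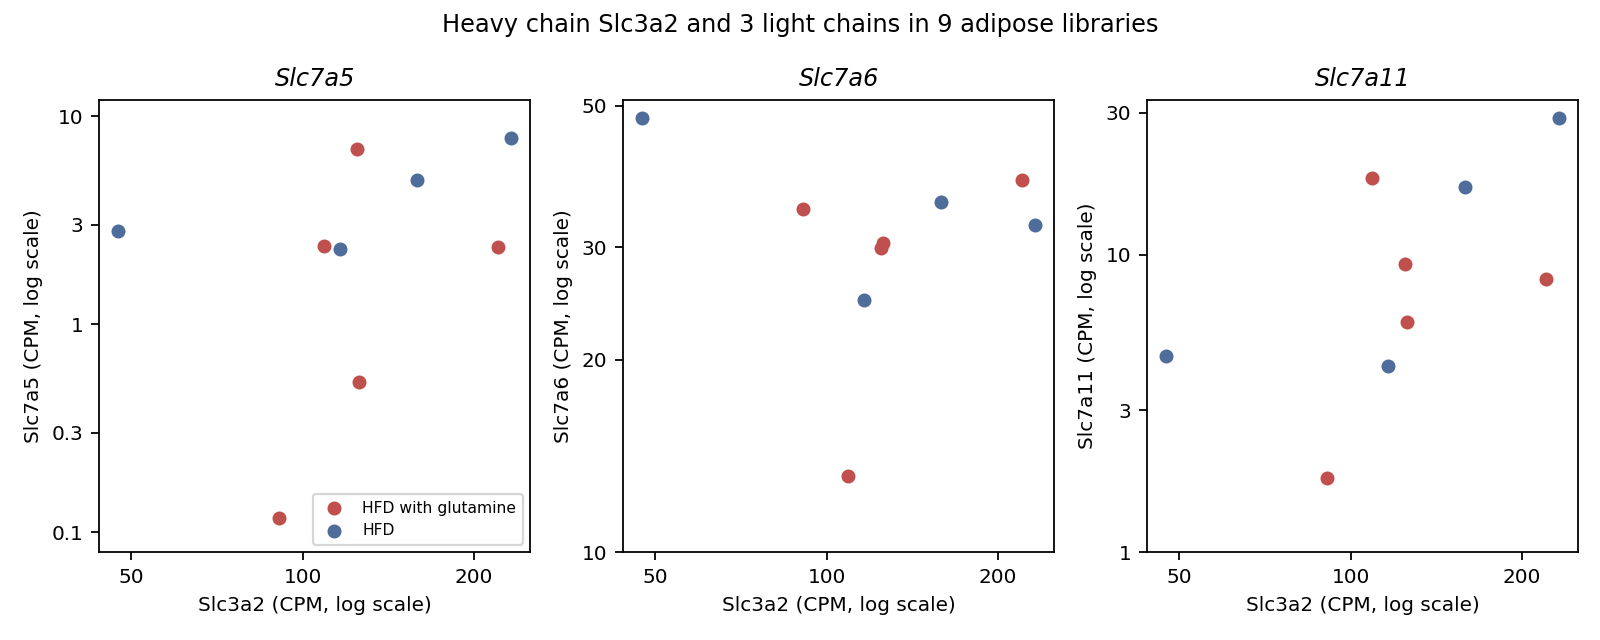
CPM of Slc7a5, Slc7a6 and Slc7a11 against CPM of Slc3a2 in the 9 adipose libraries, on log axes, glutamine libraries in red and HFD libraries in blue. Slc7a11 has the highest r of the 3 at 0.598, and HFD library 5_11 combines the lowest Slc3a2 (47.4 CPM) with the highest Slc7a6 (47.9 CPM).

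Among all pairs of members the highest correlations over the adipose libraries were those of Slc38a10 with Slc25a22 (r = 0.866) and of Slc7a5 with Slc7a11 (r = 0.773), and the lowest that of Slc38a4 with Slc7a11 (r = -0.69). These are descriptions over 9 libraries that share their depth and make-up.

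The starts of Slc7a11, Slc3a2 and Slc38a2 are shown with their 250 bases upstream, from RefSeq on GRCm38.p6, 5′ to 3′ on the gene's strand. Slc7a11 with Slc3a2 had the highest r of the 3 heavy and light chain pairs tested, none of which passed. Slc38a2 was the most abundant member in adipose. Capitals mark matches on either strand to TGATGNAAN, the composite ATF4 and CEBP element of the amino acid response, or to TGACNNNGC, the core of the antioxidant response element. The windows are chr3:50443614-50443863 for Slc7a11, chr19:8713898-8714147 for Slc3a2 and chr15:96699729-96699978 for Slc38a2, all on the minus strand. The Slc3a2 window belongs to a start inside the gene's GENCODE span, chr19:8706882-8723369, and does not cover the outermost start of that span.
Slc7a11: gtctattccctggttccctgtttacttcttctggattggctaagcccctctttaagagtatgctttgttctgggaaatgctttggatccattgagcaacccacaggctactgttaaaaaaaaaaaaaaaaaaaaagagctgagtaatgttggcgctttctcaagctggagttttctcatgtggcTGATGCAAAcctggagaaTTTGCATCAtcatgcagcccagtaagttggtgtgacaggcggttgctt
Slc3a2: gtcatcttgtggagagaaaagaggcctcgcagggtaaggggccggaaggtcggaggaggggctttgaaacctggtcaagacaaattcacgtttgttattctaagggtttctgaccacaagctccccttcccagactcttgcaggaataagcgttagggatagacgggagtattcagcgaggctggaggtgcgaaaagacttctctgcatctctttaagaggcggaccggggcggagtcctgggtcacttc
Slc38a2: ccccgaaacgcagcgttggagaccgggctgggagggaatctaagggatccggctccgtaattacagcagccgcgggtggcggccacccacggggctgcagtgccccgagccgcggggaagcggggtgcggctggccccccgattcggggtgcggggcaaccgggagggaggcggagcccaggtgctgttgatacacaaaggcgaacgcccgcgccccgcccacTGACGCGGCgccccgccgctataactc
Slc7a11 held TGATGNAAN in both orientations, beginning 66 and 48 bases before the start site, and no TGACNNNGC. Slc38a2 held TGACNNNGC once, 27 bases before the start. Slc3a2 held neither in this window. Of 32851 windows of this length, 3.44% held TGATGNAAN and 10.2% held TGACNNNGC. These matches describe letters and show no binding.

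The carriers Slc38a1, Slc38a2 and Slc38a4 lie in a row on chromosome 15, Slc38a1 at chr15:96571418-96642913, Slc38a2 at chr15:96687392-96699730 and Slc38a4 at chr15:96994820-97055956, all on the minus strand of GRCm38. The gaps are 44.5 kb and 295 kb. Their levels were far apart: over the adipose libraries they averaged 29.9, 600.0 and 1.67 CPM.

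The other amino acid carriers were followed as a list of 42 genes, of which 24 were tested in adipose and 7 in marrow. For glutamine edgeR called none in either tissue. DESeq2 called 1 of the 5 it tested in marrow, Slc6a6 at -3.72 (adjusted p = 0.0335), where it called 20.8% of all genes. The smallest adipose p-values belonged to the taurine transporter Slc6a6, with a log2 fold change of -0.73 (edgeR adjusted p = 1.00), the glutamate and aspartate transporter Slc1a3 at 2.07 (adjusted p = 1.00) and the mitochondrial aspartate and glutamate carrier Slc25a12 at 0.52 (adjusted p = 1.00). Slc6a6 averaged 103 ± 27.8 CPM with glutamine and 168 ± 52.0 CPM with HFD alone, and Slc1a3 15.5 ± 9.99 CPM with glutamine and 3.66 ± 2.61 CPM with HFD alone. The list's median was 0.05 in adipose, where that of all genes was -0.02. In marrow the smallest p-values were those of Slc6a6 (log2 fold change -2.70, adjusted p = 0.489), the lysosomal arginine-sensing carrier Slc38a9 (-1.80, adjusted p = 0.797) and the cationic carrier Slc7a1 (1.40, adjusted p = 0.869).

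Between the tissues edgeR called 6 of the 24 carriers higher in adipose and 5 lower, where 40.5% and 11.2% of all genes were. The 3 with the smallest p among the higher ones were the lysosomal carrier Slc36a4 at 5.56 (edgeR adjusted p = 1.6e-05), Slc1a3 at 4.70 (adjusted p = 4.0e-05) and the neuronal-type glutamate transporter Slc1a1 at 5.41 (adjusted p = 0.00151). Those among the lower ones were the proton-coupled carrier Slc36a2 at -8.87 (adjusted p = 0.000359), the glutamine carrier SNAT5 (Slc38a5) at -5.43 (adjusted p = 0.00626) and Slc6a6 at -2.53 (adjusted p = 0.00643). Slc36a4, Slc1a3 and Slc1a1 reached 100 counts in no marrow library and fell below the count filter in the marrow fit. Their calls thus rest on adipose counts. With limma-voom 8 were called higher and 2 lower, against 43.5% and 2.69% of all genes. With relative log expression factors the counts were 1 higher and 14 lower, against 16.2% and 42.9% of all genes. The 6 genes named here kept their direction, though Slc1a3 and Slc1a1 were no longer called. For the tissue difference in the glutamine effect, Slc7a8 at 8.01 and Slc7a7 at 9.38 were called higher and the aromatic amino acid transporter Slc16a10 at -10.2 lower (adjusted p = 0.0437, 0.0494 and 0.0432), 3 of 24 where 11.9% of all genes were called. Slc7a8 and Slc7a7 encode further light chains of CD98, LAT2 and y+LAT1. In HFD marrow 1 library held 1418 of the 1420 counts of Slc7a8, and 1 held 8405 of the 8412 of Slc7a7. No glutamine marrow library reached 100 counts of either, so each of these 2 calls rests on 1 marrow library. Slc7a7 averaged 5.80 ± 7.18 CPM with glutamine and 8.58 ± 4.18 CPM with HFD alone in adipose, and 0.111 ± 0.0985 CPM with glutamine and 75.1 ± 150.0 CPM with HFD alone in marrow. Under the relative log expression scaling, as under the upper-quartile one, none of the 24 was called.

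The genes through which lysosomal amino acids are sensed by mTORC1 were followed as a list of 32, of which 29 were tested in adipose and 12 in marrow. EdgeR called none for glutamine in either tissue. DESeq2 called 2 of the 6 it tested in marrow, where it called 20.8% of all genes. They were Rraga at 4.62 (adjusted p = 0.0189) and the GTPase Rheb, the direct activator of mTORC1, at -5.31 (adjusted p = 0.010). Rheb is named after its values were seen. In adipose the smallest p-values were those of the folliculin partner Fnip2 (log2 fold change 0.91), the mTORC1 subunit raptor, Rptor (-0.67) and the GATOR2 subunit Sec13 (-0.63), each with an edgeR adjusted p of 1.00. In marrow they were those of the Ragulator subunits Lamtor4 (7.13, adjusted p = 0.197) and Lamtor1 (6.57, adjusted p = 0.205) and the Rag GTPase Rraga (5.05, adjusted p = 0.288). Lamtor1 averaged 56.5 ± 104 CPM with glutamine and 0.323 ± 0.0656 CPM with HFD alone in marrow. For the difference between tissues edgeR called 3 of 29 lower and none higher, where 11.9% of all genes were called: Lamtor4 at -7.79, Lamtor1 at -7.11 and the GATOR1 subunit Depdc5 at -9.35 (edgeR adjusted p = 0.0434, 0.0441 and 0.0435). Each of the 3 reached 100 counts in 2 glutamine marrow libraries and in no HFD one. For Depdc5, 1 library held 15870 of the 16284 counts in glutamine marrow. The relative log expression and upper-quartile scalings each called none of the 29. DESeq2 called 2 of 19 higher and 1 lower, where it called 10.1% of all genes.

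Between the tissues 11 of the 29 sensing genes were called higher in adipose and 4 lower, near the 40.5% and 11.2% of all genes. The leading higher ones were sestrin 3 (Sesn3) at 6.03, Lamtor3 at 6.13 and Lamtor5 at 5.48 (edgeR adjusted p = 4.1e-06, 4.4e-06 and 1.4e-05). The leading lower ones were Slc38a9 at -3.84, the GATOR1 subunit Nprl3 at -3.80 and the mTOR partner Mlst8 at -3.38 (adjusted p = 0.0178, 0.0296 and 0.0335). These 3 reached 100 counts in only 4, 3 and 4 of the 9 marrow libraries. Their median CPM was lower in marrow, at 1.24, 0.178 and 0.716, against 29.8, 3.19 and 20.8 in adipose. Their calls thus rest on a part of the marrow libraries. Sesn3, Lamtor3 and Lamtor5 reached 100 counts in no marrow library, so their calls rest on adipose counts. With relative log expression factors the counts were 5 higher and 14 lower, against 16.2% and 42.9% of all genes. The 6 genes named here kept their direction. With limma-voom 12 were higher and none lower, against 43.5% and 2.69% of all genes.

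The genes whose adipose pattern was most like that of each member were found by Pearson's r over the 9 libraries among 9179 genes, as a description. For Slc38a1 they included Bag5 (0.944) and the leukocyte formin Fmnl1 (0.943). For Slc3a2 they were the kinase Akt1 (0.978), Ppp1r15b (0.975), which encodes a regulator of eIF2 alpha dephosphorylation, and Vasn (0.972). For Slc38a2 they were Rtel1 (0.938), the methionyl-tRNA synthetase Mars (0.912) and Sbf1 (0.898). For Slc1a5 they were Tgfbi (0.912), Chic2 (0.897) and Fam46a (0.896), and for Slc7a5 Cited2 (0.983), Mex3b (0.950) and Fhl1 (0.950). Slc7a11 was most like Abhd4 (0.964), C230085N15Rik (0.958) and Sept10 (0.948), and Slc7a6 most like Casp2 (0.943), Pafah2 (0.942) and Invs (0.928). Slc38a10 was most like Tmem140 (0.952), Slain2 (0.915) and Nrcam (0.907), Slc38a4 most like Rfx5 (0.931), Rrp15 (0.918) and Zfp180 (0.900), and Slc25a22 most like Agmo (0.966), Arsb (0.932) and Srsf9 (0.932). Each member had 3 genes at an r of at least 0.896.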

How the data were processed

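Whole-number read counts per gene were used as the authors deposited them, 1 table for each tissue. Per the labels' protocols a 3′-end kit was applied to 30 ng of total RNA and read 1 alone was kept. The submitters' processing notes name STAR 2.7.10b, HTSeq 0.11.3, FastQC 0.12.1 and GRCm38. Annotation, strand setting and duplicate handling were not given in the sources used here. No molecular identifiers are named, and the exact intervals of the pooled ratios cover counting error only. The intervals of the fold changes come from the edgeR fit and include the spread between libraries. Glutamine was tested within a tissue, 9 libraries at a time, by edgeR 4.0.16 under R 4.3.3 (filterByExpr, TMM factors, quasi-likelihood F test, two-sided, Benjamini-Hochberg over all genes tested, threshold 0.05); differences between tissues used 1 fit of all 18 libraries. The SE is the fold change divided by the square root of F. CPM uses the total count alone. Correlations used TMM-scaled log2 CPM with a prior count of 2. DESeq2 1.42.0, limma-voom (limma 3.58.1), other factors, no count filter, a joint fit, a replicate block and leaving out each library were alternatives, and leaving out the 2 thinnest marrow libraries was added after the data were seen. The fits were tested on simulated counts, where changes planted at the spread fitted for glutamine in marrow, or for its difference between tissues, were not recovered. The members, the marker lists and the lists of other carriers and sensing genes were chosen with earlier results of these data known. From each of those 2 gene lists up to 3 called genes per direction with the smallest p are named, or the 3 smallest p where none was called. For each member the 3 genes with the highest r among those averaging a log2 CPM of at least 3 are named, except 1 gene that is not reported here. Positions are from GENCODE M21 on GRCm38, and 7 of 10 members matched the RefSeq promoter table by symbol.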

Additional observations from a re-analysis of the deposited data

Results flagged for a closer look

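In 10 of 36 groups of 4 or 5 libraries, 1 library stood apart from the rest by more than Dixon's test allows at 95%. Its rate of about 1 in 20 holds for independent groups of normally distributed values. Marrow CPM were all-or-little and the groups share 18 libraries, so that rate does not apply here and the flags are a description. Of these 8 were in marrow. Glutamine library 18_20 was highest for Slc38a1 (12.4 CPM), Slc38a10 (175 CPM), Slc7a5 (20.8 CPM) and Slc7a11 (60.9 CPM), and it had more genes at 100 counts than any other marrow library, 7323. Library 10_12 was highest for Slc38a2 in the same arm (1228 CPM) and library 4_6 for Slc7a6 (379.9 CPM). In HFD marrow, library 1_3 was highest for Slc38a10 (174 CPM) and library 14_17 for Slc7a5 (28.8 CPM). In adipose, glutamine library 10_12 was highest for Slc3a2 (220.0 CPM) and HFD library 23_28 for Slc38a1 (142 CPM).

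The glutamine effect on Slc7a6 differed between the tissues by -8.91 on the log2 scale, adipose minus marrow, by the test of that difference in edgeR (adjusted p = 0.0432). It was -5.43 to -9.11 with 1 library left out, and the call was lost without each adipose library and each HFD marrow library.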

How the results depend on the processing

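Low counts left 4 members untested for glutamine in marrow. Members called were unchanged in number for glutamine in adipose under every alternative, and in marrow under all but the joint fit of all 18 libraries, which called 3 (25.8% of all genes). For the difference between tissues 1 was called, but 0 with relative log expression factors, upper-quartile factors, limma-voom and the replicate block, and 0 to 2 with 1 library left out: 0 without each adipose and HFD marrow library, 2 without each glutamine marrow library. Adipose over marrow 3 were called, 2 higher and 1 lower. It was 5 with relative log expression factors (0 higher), upper-quartile factors (1 higher) and limma-voom (5 higher), and 4 with DESeq2 (0 higher). The replicate block also called 3, all higher: Slc38a2 lost its call (-1.52, adjusted p = 0.0753) and Slc7a11 gained one (4.86, adjusted p = 0.00769). Same-numbered libraries of the tissues did not deviate together (r -0.01 to 0.03 over 8 pairs, 2 highest with their own number), so the numbers were not taken as pairs.

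Values that changed sign follow in log2, and the cause was not tested. For glutamine in adipose, Slc38a2 was 0.0466 with upper-quartile factors and 0.0373 with limma-voom, Slc3a2 0.0443 with limma-voom, and Slc1a5 -0.16 in the joint fit. For glutamine in marrow, Slc1a5 was 0.14 with relative log expression factors and DESeq2 and 1.85 with upper-quartile factors; Slc3a2 was -0.24, -0.24 and -1.46 there; Slc38a10 was 0.22 with upper-quartile factors and 0.43 with limma-voom. For the difference between tissues, Slc1a5 was -0.93 with upper-quartile factors, and Slc38a10 -0.26 with limma-voom and -1.04 with the replicate block. For adipose over marrow, relative log expression factors gave -2.39 for Slc38a10, -2.88 for Slc7a6, -2.27 for Slc3a2 and -0.10 for Slc7a11, upper-quartile factors -0.90 for Slc38a10, -2.13 for Slc7a6 and -1.56 for Slc3a2, and DESeq2 -2.27 for Slc3a2 and -0.0939 for Slc7a11. There limma-voom gave 1.88 for Slc1a5, 1.41 for Slc38a1 and 1.41 for Slc7a5, the replicate block 2.56, 1.76 and 3.11 for the same genes, and leaving out the 2 thinnest marrow libraries 0.35 for Slc1a5.

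With 1 library left out, ranges that crossed 0 were, for glutamine in adipose, -0.0828 to 0.16 (Slc1a5), -0.13 to 0.19 (Slc38a2), -0.35 to 0.30 (Slc3a2) and -1.15 to 0.00382 (Slc7a11); in marrow, -2.62 to 0.38 (Slc1a5) and -3.15 to 4.51 (Slc38a10); for the difference between tissues, -0.24 to 3.08 (Slc1a5), -4.26 to 3.39 (Slc38a10), -4.48 to 11.9 (Slc7a5) and -2.49 to 2.29 (Slc25a22); and for adipose over marrow, -0.65 to 0.55 (Slc1a5), -1.37 to 0.72 (Slc38a1) and -2.75 to 3.14 (Slc7a5). The correlation of Slc3a2 with Slc7a6 was -0.37 to 0.436, positive without HFD library 5_11. The other members kept their direction in the left-out fits.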
